A study of Mus musculus with 18 samples.

Results

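The genes described here encode the matrix metalloproteinases (MMPs), the ADAM and ADAMTS metalloproteinases, the ADAMTS-like proteins and the tissue inhibitors of metalloproteinases (TIMPs). They were chosen by name, as protein-coding mouse genes whose symbols are Mmp, Adam or Timp with a number or begin with Adamts, with GENCODE symbols on GRCm38. The rule found 83 of the 48023 genes in the count table: 22 MMP, 33 ADAM, 19 ADAMTS, 5 ADAMTS-like and 4 TIMP genes. Of these, 48 had enough counts to be tested, among 15071 genes tested in all. The cells were an immortalized line of murine brown preadipocytes, which are precursors of brown fat cells and carry the SV40 T antigen. They received vehicle (Veh) or recombinant FGF6, a secreted fibroblast growth factor, at 200 ng/ml. RNA was taken after 4, 8 or 24 h from 3 libraries in each of the 6 groups, 18 in all, and the study used it to find pathways that act between FGF6 and the induction of Ucp1. All groups share a single cell line, so the libraries do not sample different animals. Whether the 3 libraries of a group came from separate cultures is not given in the sources used here, so the p-values measure only the spread between these libraries. The third vehicle library at 24 h stood apart from the other two of its group. The chi-square per degree of freedom over all genes was 34.5 and 37.6 in its pairs, against 2.34 to 7.05 in the other 16 pairs of replicates. The gene CT010467.1, with 4232, 4680 and 251704 counts in the 3 vehicle libraries, led that difference, and the 10 genes that contributed most to it in each pair include no family member. Without this library, 10 of the tested family genes were called higher and 31 lower at 24 h, in place of 10 and 32, Adam1a alone having changed its call, and their median log2 fold change was -0.95 in place of -0.92.

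MMPs are zinc-dependent proteases, secreted or held at the membrane, that cut collagens, gelatin, proteoglycans and adhesion proteins, and most are made as inactive proenzymes. ADAMs are membrane proteases that release growth factors, cytokines and receptors from the cell surface, although several members lack a working catalytic site and act in adhesion. ADAMTS proteases are secreted and bind the matrix, where they cut large proteoglycans such as versican or remove the propeptides of collagens, while the ADAMTS-like proteins have no protease domain. TIMPs bind and block these enzymes, and TIMP2 also serves as the adaptor by which the membrane protease MMP14 activates pro-MMP2. In fat, this system remodels the collagen-rich matrix around preadipocytes and adipocytes.

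The total count per library ranged from 24327816 to 33471980, and a floor of 3 counts corresponded to 0.0905 to 0.126 CPM (the count scaled to a normalized library total), which covers counting error only. The family took 0.578% to 0.586% of all counts in the vehicle libraries at 4 h and 0.616% to 0.622% with FGF6, 0.490% to 0.493% and 0.422% to 0.433% at 8 h, and 0.485% to 0.494% and 0.223% to 0.227% at 24 h, so its share was higher with FGF6 at 4 h and lower at the later times. The preadipocyte markers Pdgfra, Pdgfrb, Cd34, Ly6a and Thy1 were expressed in every library, whereas Dlk1 had no count in any. Of 4 brown lineage markers, Ebf2 and Prdm16 were expressed, but Zic1 and Lhx8 did not exceed 4 counts. Of 5 macrophage and leukocyte markers, Ptprc, Adgre1 and Itgam did not exceed 3 counts in any library, whereas Cd68 had 82 to 523 counts and Csf1r 9 to 128. The summed level of the 6 preadipocyte and stromal markers, 5 of which passed the filter, at 24 h lay between 1271 and 1327 CPM in the vehicle libraries but between 349.9 and 364 CPM with FGF6. Its members did not move alike: Pdgfrb (log2 -2.37), Pdgfra (-1.62), Ly6a (-2.91) and Thy1 (-0.19) were called lower at 24 h, and Cd34 was called higher (1.38, adjusted p = 9.69e-14 by edgeR). At 24 h, 4 further marker lists were also lower with FGF6 by summed level: mature adipocyte (156 to 178 CPM in vehicle, 64.0 to 70.8 with FGF6, 6 genes), brown lineage (59.0 to 62.7 and 49.5 to 53.3, 4 genes), macrophage and leukocyte (6.48 to 7.95 and 3.36 to 3.97, 5 genes) and skeletal muscle (5.74 to 6.73 and 1.60 to 2.13, 4 genes). The endothelial list (0.965 to 1.30 and 3.71 to 5.65) and the epithelial list (0.168 to 0.490 and 1.57 to 2.57), of 4 genes each, were higher but low. Members of 2 of the lower lists went the other way at 24 h: Prdm16 of the brown lineage list was called higher (log2 0.59), and Ucp1 of the mature adipocyte list had 17 to 25 counts with FGF6 and none in vehicle. The summed stromal level, which Pdgfrb leads, moved with the genes that fell at 24 h, and its part in those results was not tested. In bulk RNA, fewer cells of a type and less RNA per cell cannot be told apart.

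The promoters of the 3 MMP genes that rose and of the inhibitor gene Timp1 are shown first, because the rise of a few members against a falling family is the pattern that the values below describe. Each line gives the 150 bases before the RefSeq start site on GRCm38.p6, on the plus strand and 5′ to 3′, at chr9:7445672-7445821 (Mmp3), chr9:7502192-7502341 (Mmp10), chr9:7272364-7272513 (Mmp13) and chrX:20870016-20870165 (Timp1). Capitals mark the AP-1 word TGAGTCA, the binding word of the FOS and JUN factors, and the PEA3 word AGGAAG of the ETS factors, searched on both strands.
Mmp3: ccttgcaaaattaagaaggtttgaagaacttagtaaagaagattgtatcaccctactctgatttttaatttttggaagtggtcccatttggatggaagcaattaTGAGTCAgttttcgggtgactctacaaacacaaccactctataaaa
Mmp10: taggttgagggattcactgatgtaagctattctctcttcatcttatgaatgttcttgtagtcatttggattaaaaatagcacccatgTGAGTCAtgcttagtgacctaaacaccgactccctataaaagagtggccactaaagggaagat
Mmp13: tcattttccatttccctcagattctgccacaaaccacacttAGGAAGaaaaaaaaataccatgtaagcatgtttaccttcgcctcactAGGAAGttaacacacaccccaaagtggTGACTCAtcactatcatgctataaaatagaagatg
Timp1: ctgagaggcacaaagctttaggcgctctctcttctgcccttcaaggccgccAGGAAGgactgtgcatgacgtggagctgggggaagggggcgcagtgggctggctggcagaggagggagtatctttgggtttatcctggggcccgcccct
An AP-1 word began 46 bases before the start site of Mmp3, 63 before that of Mmp10 and, on the opposite strand, 35 before that of Mmp13, while the Timp1 window held none. Promoter windows of 300 bases (250 before and 50 after the start) were held for 52 of the 83 genes, and for 29 of the 48 tested. The AP-1 word was found in 5.2% of all 32851 windows, in 15.8% of the 57 family windows and in 12.5% of the 32 windows of tested family genes. By gene, the word was held by 1607 of all 27025 genes with a window and by 9 of the 52 family genes. Of the 29 tested genes with a window, 4 held it: Mmp3, Mmp10, Mmp13 and, 131 bases before 1 of its start sites, Adam19. All 4 were called higher with FGF6 at every time point, as were 20.4% of all genes tested. Mmp10 had no count in any vehicle library. It entered the test only through its FGF6 counts and could not have been called lower, so its call adds nothing to this comparison. Timp1, Adam8 and Adam17, which were also higher at every time point, held none. Mmp3, Mmp10 and Mmp13 lie in the same group of Mmp genes on chromosome 9, so they are not separate instances. The share called higher among all genes that hold the word was not computed. The word also occurred in the windows of Mmp7, Mmp12, Mmp1b, Adam29 and Adam1b, which had at most 6 counts in a library and were not tested. Mmp7, Mmp12 and Mmp1b belong to the same group on chromosome 9 as Mmp3, Mmp10 and Mmp13. The family share of the AP-1 word thus rests largely on neighbouring genes. The PEA3 word was found in 35.4% of all windows, in 36.8% of the family windows and in 28.1% of those of tested family genes. A match describes the letters in these windows and is not evidence of binding. No window was held for Mmp2, Mmp19, Adamts5, Adamts15, Adam9 or Adam12.

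At each time point FGF6 was compared with vehicle with the quasi-likelihood test of edgeR, and p-values were adjusted (Benjamini-Hochberg) over all genes tested, with a threshold of 0.05. More family genes were lower than higher with FGF6 at all 3 time points, and the gap widened with time. At 4 h, 13 of 48 were higher and 23 lower, which is 27.1% and 47.9%, against 28.6% and 34.2% of all genes tested. At 8 h, 11 were higher and 26 lower (22.9% and 54.2%), against 32.4% and 38.4% of all genes. At 24 h, 10 were higher and 32 lower (20.8% and 66.7%), against 35.9% and 37.9% of all genes. The share called higher was thus near the background at 4 h and below it at 24 h, and the share called lower stood above it at each time point. All libraries of the FGF6 group lay above all vehicle libraries in 14 genes at 4 h, 11 at 8 h and 11 at 24 h (29.2%, 22.9% and 22.9%), against 30.1%, 34.2% and 36.7% of all genes. They lay below all vehicle libraries in 22, 26 and 32 genes (45.8%, 54.2% and 66.7%), against 36.1%, 39.6% and 38.1%.

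Large changes were more frequent than among all genes. Counting only changes of at least 2-fold, 7 genes were higher and 7 lower at 4 h (14.6% each), against 4.96% and 6.38% of all genes. At 8 h, 8 were higher and 13 lower (16.7% and 27.1%), against 7.39% and 10.9%. At 24 h, 6 were higher and 23 lower (12.5% and 47.9%), against 7.44% and 15.3%. The median log2 fold change of the 48 genes was -0.21 at 4 h, -0.30 at 8 h and -0.92 at 24 h. For all genes tested it was -0.05, -0.05 and -0.02. The lower bounds given below for Mmp10 and Adamts8 also lie above these medians, so using them could not move the medians. The median absolute log2 fold change of the 48 genes reached 1.43 at 24 h, against 0.48 for all genes. In all, 7 genes were called higher at all 3 time points (Adam8, Adam17, Adam19, Mmp3, Mmp10, Mmp13 and Timp1), which is 14.6%, against 20.4% of all genes. Another 23 were called lower at all 3 (47.9%, against 23% of all genes). Mmp10, which had no count in vehicle, could not have been called lower, and it is among the genes counted as higher at each time point. Adam12, Adamts9 and Timp3 were called in opposite directions at different times (6.25%, against 8.19%). Adam4, Adam11 and Adamtsl2 were called at no time point (6.25%, against 12.1%).

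**Figure D1:**
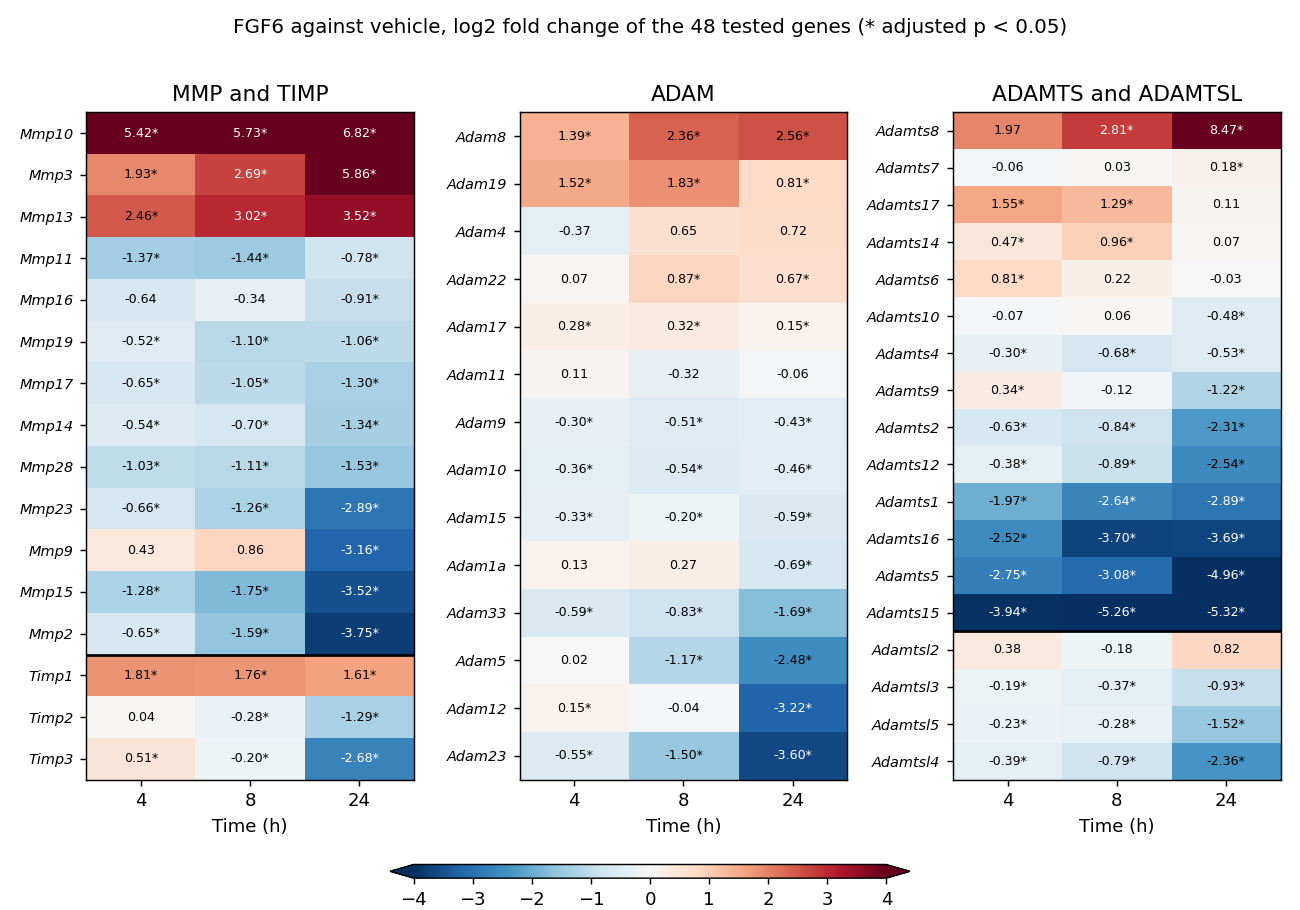
Log2 fold change of FGF6 against vehicle for the 48 tested genes (rows, by family and ordered by the 24 h value) at 4, 8 and 24 h (columns), with colour from blue (lower) to red (higher) and an asterisk for an adjusted p under 0.05 by edgeR. Mmp3, Mmp10, Mmp13, Timp1, Adam8 and Adam19 are red at each time except for the paler Adam19 at 24 h, and Adamts8 is red at 24 h. Mmp2, Mmp15, Adamts1, Adamts5 and Adam23 deepen in blue with time. Adamts15 is deep blue at each time (-3.94, -5.26 and -5.32). The fitted values of Mmp10 and of Adamts8 at 24 h rest on vehicle libraries without a count and are no measure of their size.

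The MMPs that rose were collagenase 3 and stromelysins 1 and 2. These 3 genes, Mmp13, Mmp3 and Mmp10, lie in a group of 9 Mmp genes spanning 427 kb of chromosome 9 (7272514 to 7699585), and were the only genes of the 9 with enough counts to be tested. Mmp3 encodes stromelysin 1, which cuts proteoglycans and fibronectin and activates other pro-MMPs. Its level at 24 h was 0.280, 0.121 and 0.168 CPM in the vehicle libraries and 13.2, 10.8 and 9.36 CPM in the FGF6 libraries. Every FGF6 library lay far above every vehicle library, and vehicle stood near the counting floor with 8, 4 and 4 counts. The log2 fold change was 5.86 ± 0.22 (SE, adjusted p = 7.37e-18), after 1.93 ± 0.20 at 4 h (8.6e-09) and 2.69 ± 0.20 at 8 h (8.37e-12). Between 4 and 24 h the vehicle mean went from 0.728 ± 0.082 to 0.190 ± 0.082 CPM (SD, n = 3), while the FGF6 mean went from 2.79 ± 0.32 to 11.1 ± 1.9.

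Mmp13 encodes the main interstitial collagenase of the mouse, which cuts fibrillar collagen. Vehicle libraries held 1.17, 1.05 and 1.44 CPM at 4 h and 1.09, 1.12 and 0.967 CPM at 24 h. FGF6 libraries held 7.28, 6.37 and 6.38 CPM at 4 h, 8.98, 9.21 and 8.14 at 8 h, and 12.9, 12.3 and 11.5 at 24 h. The groups did not overlap at any time, and the vehicle mean was 1.22 CPM at 4 h and 1.06 at 24 h. The rise was 5.48-fold at 4 h, 8.1-fold at 8 h and 11.5-fold at 24 h (log2 3.52 ± 0.13, adjusted p = 3.36e-18). Mmp10, which encodes stromelysin 2 and is named here after its values were seen, had no count in any of the 9 vehicle libraries. With FGF6 it had 10, 3 and 2 counts at 4 h, 4, 8 and 7 at 8 h, and 18, 13 and 9 at 24 h. Against a vehicle floor of 3 counts per library it was at least 2.35-fold higher at 8 h and at least 4.51-fold higher at 24 h. No bound is given at 4 h, where its counts of 3 and 2 did not exceed that floor. Of the untested genes in the same group, macrophage elastase Mmp12 had 6, 3 and 2 counts with FGF6 and none in vehicle at 24 h, and Mmp7 had none anywhere.

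The gelatinase Mmp2 and the membrane-type MMPs fell. Mmp2 (chromosome 8, 92827291 to 92853420) encodes the constitutive gelatinase of mesenchymal cells. It was at 297, 284 and 273 CPM in vehicle at 24 h and at 21.4, 20.3 and 21.7 CPM with FGF6. It had been at 275 ± 9.1 CPM in vehicle and 176 ± 6.1 with FGF6 at 4 h, and at 193 ± 7.9 and 64.3 ± 6.8 at 8 h. Its level with FGF6 was therefore lower at each later time, while vehicle returned to its 4 h level. The fold decrease was 1.56 at 4 h, 3.01 at 8 h and 13.5 at 24 h (log2 -3.75 ± 0.06, adjusted p = 1.22e-25). Mmp14, whose membrane protease activates pro-MMP2, stood at 683, 711 and 706 CPM in vehicle and at 264, 276 and 288 CPM with FGF6 at 24 h. The groups did not overlap at any time, and the log2 fold change went from -0.54 ± 0.03 at 4 h to -0.70 ± 0.03 at 8 h and -1.34 ± 0.03 at 24 h (adjusted p = 6.58e-22). A related membrane protease, Mmp15, went from 21.5, 26.3 and 22.3 CPM in vehicle to 1.79, 1.93 and 2.42 with FGF6 at 24 h, an 11.4-fold decrease (adjusted p = 1.35e-17). All 4 tested membrane-type genes were called lower at 24 h, as were 37.9% of all genes tested, with Mmp16 (log2 -0.91) and Mmp17 (-1.30) at levels near 1 CPM.

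Mmp23, a small protease with a cysteine-rich tail, showed the steepest fall among the remaining MMPs above 1 CPM. It went from 111, 121 and 118 CPM in vehicle to 16.6, 14.8 and 15.7 with FGF6 at 24 h (log2 -2.89 ± 0.06, adjusted p = 2.23e-23). Mmp19 fell 2.09-fold at 24 h (94.2 ± 4.8 to 45.1 ± 0.77 CPM). Exons of Mmp19 share 28.3% of their length with opposite-strand genes, and without a stated strand setting those reads cannot be told apart. The neighbouring gene Tmem198b had 967 to 1373 counts in vehicle and 1190 to 1348 with FGF6 at 24 h. Mmp28, epilysin, fell 2.04-fold at 4 h and 2.88-fold at 24 h. Mmp11, stromelysin 3, is activated inside the cell by furin and went against the general time course. It was at 55.0 ± 0.68 CPM in vehicle and 21.3 ± 1.0 with FGF6 at 4 h, and at 41.5 ± 1.8 and 24.1 ± 2.2 at 24 h, so its log2 fold change narrowed from -1.37 to -0.78. The inducible gelatinase Mmp9 was scarce, with 12, 16 and 12 counts in vehicle and 0, 2 and 2 with FGF6 at 24 h (adjusted p = 0.000176), and was not called at 4 or 8 h. The plot of levels by library shows 4 of these MMP genes beside inhibitors and other proteases.

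**Figure D2:**
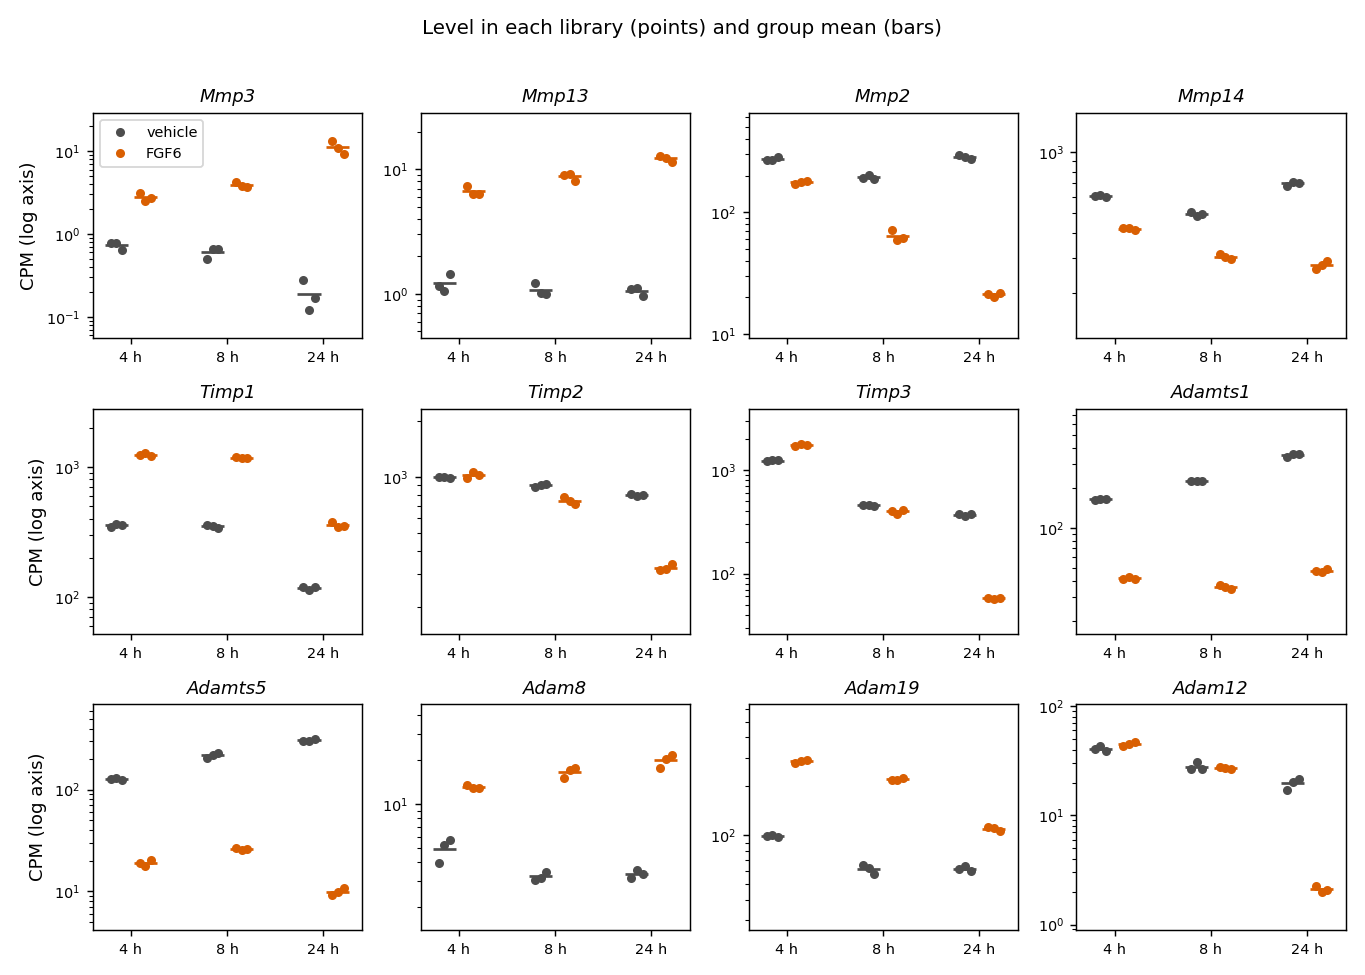
Level of 12 genes in each library (points, CPM on a log axis) and the mean of the 3 libraries of a group (horizontal bars), vehicle in grey and FGF6 in orange, at 4, 8 and 24 h. FGF6 and vehicle are separated at every time in Mmp3, Mmp13, Mmp2, Mmp14, Timp1, Adamts1, Adamts5, Adam8 and Adam19, whereas Timp2 overlaps at 4 h, Adam12 overlaps at 8 h and parts at 24 h (19.7 against 2.11 CPM), and Timp3 passes from above vehicle at 4 h to below it at 24 h.

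The TIMPs went separate ways. Timp1, which inhibits most secreted MMPs but is a weak inhibitor of MMP14, was raised at each time point. Its level at 4 h was 344, 361 and 360.2 CPM in vehicle and 1239, 1274 and 1212 CPM with FGF6. At 24 h it was 119.9, 114 and 118 CPM in vehicle and 378, 344 and 351 CPM with FGF6. The level was lower at 24 h than at 8 h in both groups, and its mean with FGF6 at 24 h, 358 ± 18 CPM, was near that of vehicle at 4 h, 355 ± 9.5. The ratio was 3.5-fold at 4 h, 3.38-fold at 8 h and 3.05-fold at 24 h (log2 1.61 ± 0.04, adjusted p = 9.94e-23), slightly less at 24 h than at 8 h by the interaction test (-0.15, adjusted p = 0.0177). Timp2 did not pass the test at 4 h (log2 0.04 ± 0.03, adjusted p = 0.277), was slightly lower at 8 h (-0.28 ± 0.03) and fell at 24 h. There it was at 814, 785 and 795 CPM in vehicle and at 314, 321 and 341 CPM with FGF6, a 2.45-fold decrease (adjusted p = 3.14e-21).

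Timp3, a matrix-bound inhibitor that also blocks ADAM17 and the aggrecanases, reversed its direction. At 4 h it was higher with FGF6, at 1722, 1785 and 1767 CPM against 1217, 1247 and 1241 in vehicle (log2 0.51 ± 0.03, adjusted p = 6.72e-14). At 8 h it was at 407, 379.7 and 409 CPM with FGF6 against 457, 458 and 454 (log2 -0.20 ± 0.03), and at 24 h at 57.9, 57.1 and 58.5 CPM against 379, 362 and 372 (log2 -2.68 ± 0.03, adjusted p = 4.44e-28). No library of either group overlapped the other at any time. The vehicle mean itself was lower at 8 h than at 4 h, 456 ± 1.7 against 1235 ± 16 CPM. Timp3 (chromosome 10, 86300372 to 86349506) shares 21.3% of its exonic length with Syn3 on the opposite strand, which had at most 36 counts in any library. Timp4 had at most 11 counts and was not tested, with 3, 1 and 4 counts in vehicle and none with FGF6 at 24 h, and is not given a fold.

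Levels of different genes were compared as CPM per kilobase of annotated exon. Summed in this way, the TIMPs made up 57.9% ± 0.29 of the family in vehicle and 80.6% ± 0.42 with FGF6 at 4 h, 55.4% ± 0.36 and 81.7% ± 0.058 at 8 h, and 36.1% ± 0.85 and 62.4% ± 0.78 at 24 h (SD, n = 3). The share was higher with FGF6 at each time point and the groups did not overlap. The sum of the TIMPs at 24 h was 383 ± 8.3 CPM per kilobase in vehicle and 494 ± 19 with FGF6. The sum of the MMPs went from 299.7 ± 4.2 to 92.7 ± 1.6, that of the ADAMTS genes from 143 ± 2.1 to 42.3 ± 1.4 and that of the ADAMTS-like genes from 41.4 ± 2.2 to 13.0 ± 0.42, while the ADAM genes went from 192 ± 6.8 to 148 ± 2.6. A sum follows its leading genes: with FGF6, Timp1 alone stood at 403 CPM per kilobase at 24 h, and Timp2, the next gene, at 83.5. These are RNA levels and not amounts of protein or activity.

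**Figure D3:**
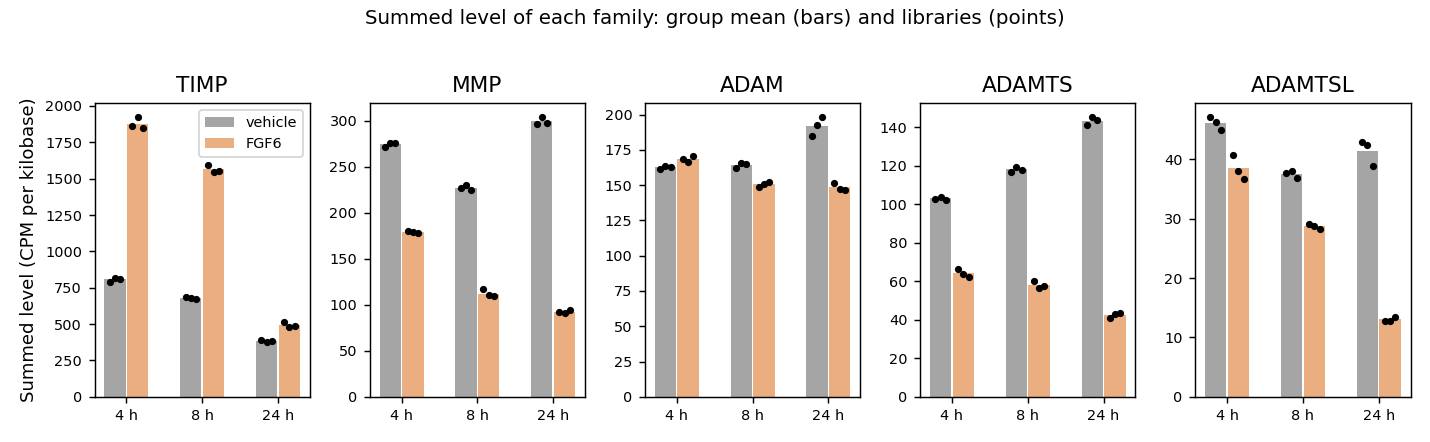
Summed level of each family in CPM per kilobase, with bars for the mean of 3 libraries and points for the libraries, vehicle in grey and FGF6 in orange, at 4, 8 and 24 h; each panel has its own axis starting at 0. The TIMP bars are higher with FGF6 at every time (1877 against 807 at 4 h), the MMP, ADAMTS and ADAMTS-like bars are lower at every time, and the ADAM bars lie close together at 4 h (168 against 163).

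Of the 48 tested genes, Timp2 led in vehicle at 24 h with 205 CPM per kilobase, followed by Timp1 at 132, Mmp14 at 117, Mmp2 at 84.5 and Adam9 at 73.3. With FGF6 the order was Timp1 at 403, Timp2 at 83.5, Adam9 at 54.2, Mmp14 at 46.3 and Adam10 at 38.1. Mmp2 and Adamts1, the fourth and the sixth gene in vehicle, were not among the 10 highest with FGF6. The genes that rose most started low: Mmp3 went from 0.105 to 6.17 CPM per kilobase and Mmp13 from 0.395 to 4.58, so that Mmp3 ended close to Mmp2, which went from 84.5 to 6.27.

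**Figure D4:**
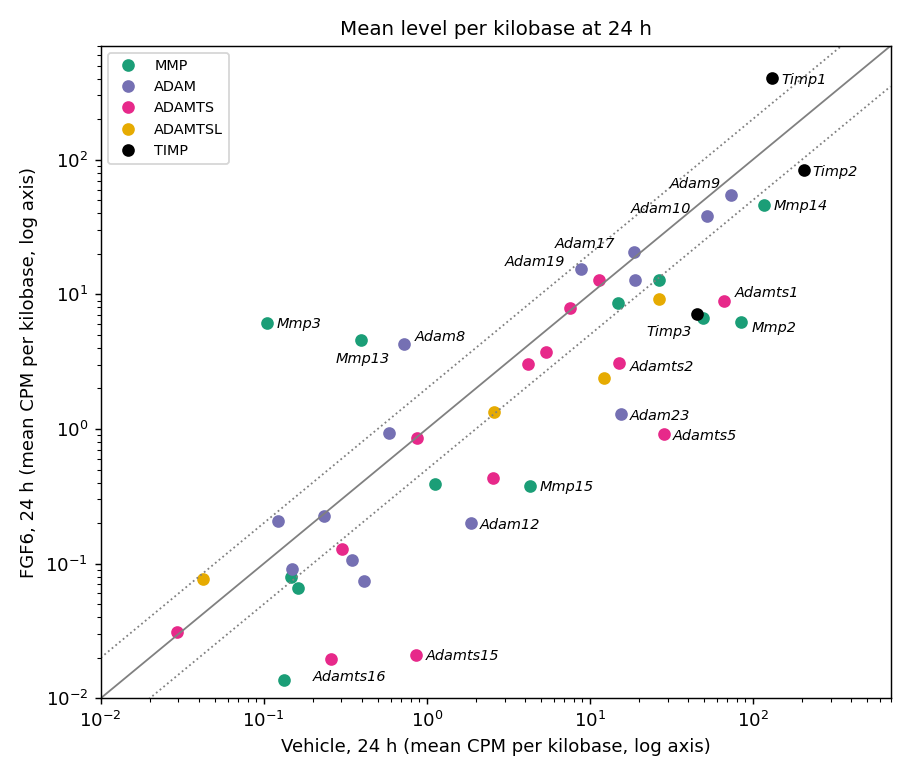
Mean level at 24 h in vehicle (horizontal) and with FGF6 (vertical), both in CPM per kilobase on log axes, for the 46 tested genes with counts in both groups, coloured by family; the solid line marks equal levels and the dotted lines a 2-fold difference. Timp1 stands above the upper dotted line at the high end and Mmp3, Mmp13 and Adam8 at the low end, while Mmp2, Adamts1, Adamts5, Timp3 and Adam23 lie below the lower dotted line.

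The ADAMTS hyalectanases, which cut versican and aggrecan, held the deepest decreases of the family. Adamts5 (chromosome 16, 85856173 to 85901828) encodes the main aggrecanase of the mouse. It was at 126, 129 and 125 CPM in vehicle and at 18.8, 17.8 and 20.3 CPM with FGF6 at 4 h. At 24 h it was at 300.3, 305 and 315 CPM in vehicle and at 9.12, 9.89 and 10.6 CPM with FGF6. The vehicle level was higher and the FGF6 level lower at 24 h than at 4 h, and the decrease went from 6.71-fold to 31.1-fold (log2 -4.96 ± 0.05, adjusted p = 1.89e-28). Adamts1, its neighbour 53.1 kb away on chromosome 16, went from 161, 164 and 165 CPM to 40.9, 42.7 and 41.6 at 4 h, and from 343, 357 and 356 to 47.1, 46.6 and 48.9 at 24 h. In Adamts1 the level with FGF6 stayed between 34.9 and 48.9 CPM throughout, while vehicle was higher at each later time, and the fold decrease went from 3.91 to 7.42 (adjusted p at 24 h = 3.38e-28). Adamts15 went from 8.34, 7.90 and 10.6 CPM to 0.292, 0.0714 and 0.294 at 24 h, where the FGF6 libraries held 8, 2 and 8 counts (log2 -5.32 ± 0.24, adjusted p = 1.47e-16). It was already 15.3-fold lower at 4 h.

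The remaining hyalectanases moved less or the other way. Adamts4 fell 1.23-fold at 4 h and 1.44-fold at 24 h. Adamts9 was at 8.46 ± 1.3 CPM in vehicle and 10.8 ± 0.97 with FGF6 at 4 h (log2 0.34, adjusted p = 0.00774) and at 4.53 ± 0.18 and 1.95 ± 0.21 at 24 h (log2 -1.22, adjusted p = 1.44e-07); the call at 4 h was lost without vehicle replicate 1 (log2 0.23, adjusted p = 0.0777). Adamts8, named here after its values were seen, had no count in vehicle at 24 h and 40, 35 and 51 counts with FGF6, which is at least 14.2-fold higher against a floor of 3 counts per library. It shares 489 exonic bases with the antisense gene Gm29724, which was not analysed here. Adamts8 lies 20.1 kb from Adamts15 on chromosome 9, so adjacent members of the same class went in opposite directions. Vcan, which encodes versican and is cut by these enzymes, also fell. At 4 h it was at 804 ± 27 CPM in vehicle and 429 ± 9.9 with FGF6, and at 24 h at 1151 ± 58 and 236 ± 18 (log2 -2.29, adjusted p = 1.5e-23).

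The procollagen N-propeptidases Adamts2 and Adamts14, which trim collagen precursors before fibrils form, differed. Adamts2 was at 178, 170 and 168 CPM in vehicle and 115, 112 and 105 with FGF6 at 4 h, and at 135, 151 and 138 against 28, 25.7 and 32.2 at 24 h (log2 -2.31 ± 0.06, adjusted p = 2.19e-21). Adamts14 was higher with FGF6 at 4 h (39.3 ± 1.5 against 54.5 ± 1.0 CPM) and at 8 h (30.1 ± 0.86 against 58.6 ± 3.2), and the groups overlapped at 24 h (log2 0.07, adjusted p = 0.247). Adamts12, a protease of cartilage oligomeric matrix protein, fell from 27.7 ± 2.6 to 4.74 ± 0.32 CPM at 24 h (5.83-fold, adjusted p = 2.53e-18). Adamts7, which acts on the same substrate, was at 71.5 ± 2.9 in vehicle and 80.9 ± 2.2 with FGF6 (log2 0.18). Adamts16 fell at every time point, from 39, 67 and 45 counts in vehicle to 2, 5 and 4 with FGF6 at 24 h (log2 -3.69 ± 0.37). Among the ADAMTS-like genes, whose products bind fibrillin microfibrils, Adamtsl4 fell 5.13-fold at 24 h (51.6 ± 3.7 to 10.1 ± 0.97 CPM) and Adamtsl5 2.88-fold (125 ± 6.2 to 43.5 ± 2.7), and Adamtsl3 fell 1.91-fold.

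Among the ADAMs, the abundant sheddases moved little. Adam10, which releases Notch receptors and cadherins, was at 245, 256 and 269.8 CPM in vehicle and 188, 188 and 185 with FGF6 at 24 h. Every FGF6 library lay below every vehicle library, and the log2 fold change was -0.36 at 4 h, -0.54 at 8 h and -0.46 ± 0.04 at 24 h (adjusted p = 1.53e-11). Adam9 was similar, with -0.30, -0.51 and -0.43. Adam17, which releases tumour necrosis factor and ligands of the EGF receptor, was slightly higher at each time, by 0.28, 0.32 and 0.15 on the log2 scale, and at 129, 132 and 139 CPM in vehicle and 153, 146 and 144 with FGF6 at 24 h. The gene Rhbdf2, which encodes the iRhom2 cofactor that carries ADAM17 to the surface, did not pass the test at 4 h (log2 0.06, adjusted p = 0.40) and fell at 8 h (-1.02) and 24 h (-1.33), from 30.3 ± 0.63 to 12.1 ± 0.64 CPM. Rhbdf1, which encodes the related cofactor iRhom1, was called higher at 4 h (0.78) and 8 h (0.81) and lower at 24 h (-0.22), where it went from 68.9 ± 1.9 to 59.4 ± 0.26 CPM.

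Adam8 and Adam19 rose. Adam8, a sheddase first known from leukocytes, was at 3.15, 3.53 and 3.36 CPM in vehicle and at 17.4, 20.2 and 21.6 CPM with FGF6 at 24 h. Its log2 fold change was 1.39 ± 0.11 at 4 h, 2.36 ± 0.11 at 8 h and 2.56 ± 0.11 at 24 h (adjusted p = 8.75e-17). Of the 5 macrophage and leukocyte markers, Cd68 was called higher at 4 h (0.58) and 8 h (0.26) and lower at 24 h (-0.85), Csf1r was called lower at each time, and the others were too low to be tested. The summed level of the 5 at 4 h lay between 14.2 and 15.2 CPM in vehicle and between 17.6 and 18.5 with FGF6, and its part in the Adam8 values was not tested. Adam19, meltrin beta, had its highest level in both groups at 4 h, the first time sampled. It was then at 279.8, 285 and 289.9 CPM with FGF6 against 98.6, 101 and 98.2 in vehicle. At 24 h it was at 113, 110.1 and 106 CPM against 61.9, 65.1 and 60.4. The groups remained apart, but the fold was 2.87 at 4 h, 3.55 at 8 h and 1.75 at 24 h (adjusted p = 2.47e-15). Exons of Adam19 share 10.1% of their length with opposite-strand genes that had at most 1 count.

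Adam12, Adam23 and Adam33 fell. Adam12, meltrin alpha, was at 17.2, 20.3 and 21.5 CPM in vehicle and at 2.26, 1.96 and 2.09 CPM with FGF6 at 24 h, a 9.31-fold decrease (log2 -3.22 ± 0.11, adjusted p = 7.51e-19). At 8 h the groups overlapped (27.9 ± 2.5 and 27.2 ± 0.70 CPM, adjusted p = 0.63). At 4 h FGF6 was higher by 0.15 (adjusted p = 0.0377), a call that was lost without FGF6 replicate 3 (0.15, adjusted p = 0.0761), vehicle replicate 1 (0.14, 0.0872) or vehicle replicate 3 (0.12, 0.152). Adam23, whose product has no active protease site and binds integrins and LGI proteins, went steadily from 185, 180.2 and 178 CPM in vehicle and 121, 126 and 124 with FGF6 at 4 h to 264, 283 and 286 against 22.3, 23.3 and 23.4 at 24 h. Its log2 fold change was -0.55, -1.50 and -3.60 ± 0.04 (adjusted p at 24 h = 2.65e-28). Adam22, which is also inactive as a protease, was higher at 8 h (0.87) and 24 h (0.67). Adam33 was at 1.88 ± 0.59 CPM in vehicle and 0.570 ± 0.15 with FGF6 at 24 h (log2 -1.69, adjusted p = 4.5e-06).

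Whether the effect of FGF6 changed with time was tested as an interaction. It differed between 4 and 8 h in 25 of the 48 genes (52.1%), against 30.6% of all genes, and between 8 and 24 h in 27 (56.2%), against 45.1%. Timp3 (log2 difference -2.49), Adam12 (-3.18), Mmp2 (-2.16) and Adam23 (-2.09) were among those lowered further at 24 h than at 8 h, Mmp3 (3.17) was raised further, and Adam19 (-1.02) lost part of its rise. Adamts1 had most of its change by 8 h (-0.25).

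Of 46 further genes of the system, listed as regulators, astacin proteases with their enhancers and substrates, 30 were tested. Those called higher and lower numbered 12 and 8 at 4 h (40% and 26.7%, against 28.6% and 34.2% of all genes), 12 and 12 at 8 h (40% each, against 32.4% and 38.4%), and 9 and 19 at 24 h (30% and 63.3%, against 35.9% and 37.9%). The share called lower at 8 h was thus near the background. Reck, a membrane-anchored inhibitor of MMP2, MMP9 and MMP14, fell at every time, from 9.71 ± 0.38 to 5.01 ± 0.17 CPM at 4 h and from 15.1 ± 0.38 to 5.94 ± 0.38 at 24 h (log2 -1.34, adjusted p = 4.6e-14). Furin, a convertase that activates several pro-MMPs and ADAMs, was 0.24 higher at 4 h and 0.72 lower at 24 h on the log2 scale (238 ± 5.4 to 145 ± 1.5 CPM). Among 8 tested substrates the median log2 fold change at 24 h was -2.17, against -0.02 for all genes, with 6 called lower and 1 higher (75% and 12.5%, against 37.9% and 35.9% of all genes). The lowest was Comp (cartilage oligomeric matrix protein), from 4.53 ± 0.23 to 0.316 ± 0.19 CPM (log2 -3.83), with Fbn2 (fibrillin 2) at -2.70. The gene called higher was Dcn (decorin), from 21.4 ± 0.46 to 132 ± 26 CPM (log2 2.63, adjusted p = 1.7e-17), which did not pass the test at 4 h and was called lower at 8 h (-0.36, adjusted p = 0.00555).

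The 35 untested genes had at most 12 counts in any library, and 18 of them had none in all 18 libraries. They include the neutrophil collagenase Mmp8 and ADAMs known from testis, such as Adam2 and Adam18. They were too low for the test, and no difference is claimed for them.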

How the data were processed

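RNA from 18 libraries of an immortalized brown preadipocyte line was sequenced on an Illumina HiSeq. The authors deposited raw counts per gene, without normalization, made with STAR (alignment to GRCm38) and with featureCounts of Subread (GENCODE annotation). For their own tests they did normalize the counts. Versions, strand setting and the treatment of multi-mapping reads are not given in the sources used here, so counts of overlapping genes are uncertain. All 18 libraries were used, grouped by the labels.

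From the counts, edgeR 4.0.16 in R 4.3.3 kept 15071 genes (filterByExpr, 6 groups). TMM factors were used, and the quasi-likelihood model had a mean for each of the 6 groups and no covariate. Contrasts were FGF6 minus vehicle at 4, 8 and 24 h, and changes of the effect between times were tested as interactions, with Benjamini-Hochberg adjustment over all genes. The standard error is that implied by the F statistic. CPM used TMM-scaled totals, and ± marks the SD over the 3 libraries. Calls had an adjusted p under 0.05. The totals per library (24327816 to 33471980 counts) set a floor of 3 counts, which covers counting error only.

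The study's own threshold, an adjusted p under 0.25, was an alternative, as were limma 3.58.1 with voom, DESeq2 1.42.0, upper-quartile factors or library sizes alone, no filter or a minimum of 10 counts per library, a fit restricted to the libraries compared, a replicate block and leaving out each library. GENCODE M21 gave symbols for 98.5% of 48023 identifiers, exon lengths and overlaps. Promoters came from RefSeq on GRCm38.p6. The code was tested on simulated counts with 200 changed genes.

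The genes, lists and tests were chosen with earlier results of these data known. Genes named are those at least 2-fold changed at any time with a mean of at least 1 CPM, Timp1 to Timp4, Mmp2, Mmp14, Adam10 and Adam17, the 5 highest per kilobase in vehicle at 24 h, and from the wider list Reck, Furin, Rhbdf2, Vcan and the 3 with the largest change at 24 h. Rhbdf1 was added after its values were seen. Other members fall outside this rule, among them Mmp9, Adam22, Adamts4, Adamts7, Adamts14 and Adamtsl3, which are given with values. Some others are named to complete a count.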

Additional observations from a re-analysis of the deposited data

Results flagged for a closer look

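The effect of FGF6 differed between time points in many of the 29 named genes that were tested, by edgeR's interaction test with Benjamini-Hochberg adjustment. Of all genes tested, 30.6% differed between 4 and 8 h and 45.1% between 8 and 24 h. Most of the 29 genes were named because they changed at least 2-fold at some time, so their counts are a description and not comparable with those shares. Negative values mean a lower log2 fold change at the later time.

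Between 4 and 8 h, 20 genes differed. The inhibitors Timp2 (-0.32) and Timp3 (-0.70) and the MMPs Mmp2 (-0.94), Mmp14 (-0.16), Mmp19 (-0.59) and Mmp23 (-0.60) moved down, and Mmp13 (0.56) moved up. In the ADAMTS group the differences were Adamts1 (-0.67), Adamts2 (-0.21), Adamts5 (-0.33), Adamts9 (-0.46), Adamts12 (-0.51), Adamts15 (-1.32), Adamts16 (-1.18) and Adamtsl4 (-0.40). In the ADAM group, Adam9 (-0.21), Adam10 (-0.18) and Adam23 (-0.95) moved down, while Adam8 (0.97) and Adam19 (0.30) moved up.

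Between 8 and 24 h, 20 genes differed. All 3 tested inhibitors moved down: Timp1 (-0.15), Timp2 (-1.02) and Timp3 (-2.49). The MMPs were Mmp2 (-2.16), Mmp14 (-0.64), Mmp15 (-1.76) and Mmp23 (-1.63), with Mmp3 (3.17) and Mmp11 (0.66) in the other direction. The ADAMTS group gave Adamts1 (-0.25), Adamts2 (-1.46), Adamts5 (-1.88), Adamts9 (-1.10), Adamts12 (-1.66), Adamtsl4 (-1.57) and Adamtsl5 (-1.25), and the ADAM group Adam12 (-3.18), Adam17 (-0.17), Adam19 (-1.02) and Adam23 (-2.09). Timp3, Adam12 and Adamts9 were called higher at 4 h and lower at 24 h.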

How the results depend on the processing

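The counts of called genes stayed within 1.5 times of the values reported under every alternative except 1: with at least 10 counts in every library, 7 genes were higher at 8 h in place of 11, since fewer genes were tested. Library sizes alone moved the median of all genes by -0.102 on the log2 scale at 4 h. Timp2 at 4 h (0.04) changed sign with library sizes alone (-0.06) and with upper-quartile factors (-0.01), and passed the test with only the libraries of the time compared (0.08) and without FGF6 replicate 1 (0.09). Adam12 at 8 h ranged from -0.08 to 0.04 with 1 library left out, and was at 0.02 without FGF6 replicate 3 and 0.04 without vehicle replicate 2. The cause was not tested. Calls at 4 h were lost for Adam12 with library sizes alone (0.05) and upper-quartile factors (0.10), for Adamts9 with library sizes alone (0.24), and for Adam33 without FGF6 replicate 2 (-0.53) or vehicle replicate 2 (-0.44), against -0.59 with all libraries. The deviations of same-numbered libraries from their group means had correlations of -0.025 to 0.051 over 9 pairs. Genes with few counts weighed as much as others in them, so they cannot decide whether the numbers pair the samples. With the replicate block, 32 genes were lower and 10 higher at 24 h, and 28 in place of 27 differed between 8 and 24 h. Genes under about 1 CPM in most libraries, such as Mmp9, Mmp10 and Adamts8, rest on few counts. Exonic lengths join all annotated transcripts, so levels per kilobase are approximate.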
